A study of Mus musculus with 10 samples.

Results

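CD49b+ cells sorted from the CD4+ T cells of dendritic cell injected mice were compared with CD4+ cells of mice given the same injections, gene by gene across the genome. The comparison rests on 5 of the 10 arrays of the series, 3 of CD49b+ cells and 2 of CD4+ cells. The arrays carry 45141 probe sets, and every probe set with 1 gene symbol was considered. Each gene was read from 1 probe set, the one with the highest mean over the 10 arrays, which gave 17097 genes. Of these, 11037 were bright enough to test and 6060 were too dim.

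The mice were of the DBA/1 strain, and the cells came from their spleens. In both groups every mouse had been given 500000 immature dendritic cells by intraperitoneal injection on 3 occasions, 7, 5 and 3 days before they were killed. Immature dendritic cells present antigen without having been activated, and the study's title places the sorted cells in work on regulatory T cells and arthritis severity. CD4+ cells were enriched by depleting the other cells, then sorted by flow cytometry on the surface proteins CD4, CD49b or CD25. Cells of several mice were pooled before the sort, so no array stands for a single mouse. The labels do not say whether CD49b+ or CD25+ cells had been taken out of the CD4+ comparator. CD25+ cells of injected mice (3 arrays) and CD4+ cells of naive mice (2 arrays) complete the series, and their values are given where they place a gene.

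CD49b is the alpha 2 chain of an integrin that binds collagen together with the beta 1 chain. It is carried by natural killer cells and by some antigen-experienced CD4+ T cells, among them cells that make interleukin 10 and restrain other T cells without depending on Foxp3. A naive CD4+ T cell recirculates through lymphoid organs under factors such as Lef1, Foxp1 and Bach2, while an effector T cell loses this program, divides, and gains receptors for inflamed tissue together with cytokines or granule proteases.

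Values are log2 levels, on which a step of 1 doubles the signal. Replicates of a group lay close together: the mean absolute difference between arrays was 0.17 to 0.18 within the groups and 0.46 to 0.51 between them. The median over all probe sets of an array was 4.8 to 4.81 for CD4+ cells and 4.61 to 4.62 for CD49b+ cells. The excess of the 3' over the 5' Gapdh control probe set, which grows as RNA or its copies shorten, was 0.19 ± 0.09 (SD, n = 2) in CD4+ and 0.46 ± 0.23 (SD, n = 3) in CD49b+ arrays, and its part in the differences was not tested. The spiked polyA controls stood at 7.23 on CD49b+ replicate 3 and at 4.94 to 5.80 on the other 4 arrays. CD25+ replicate 3 was also high at 7.04, against 5.74 and 5.86 on CD25+ replicates 1 and 2. The part of this in the differences was not tested.

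The label was checked first. Itga2, which encodes CD49b itself, read 5.80 and 5.85 in CD4+ cells and 5.59, 5.97 and 5.77 in CD49b+ cells. The groups overlapped, and the difference of -0.05 ± 0.11 (SE) did not pass the test (limma, adjusted p = 0.717). The sorted surface protein was thus not matched by a transcript level above that of CD4+ cells on this single probe set. CD25+ cells read 5.45, 5.53 and 5.43, and CD49b+ cells were 0.31 above them (limma, adjusted p = 0.0349). Klrg1, an inhibitory lectin receptor of effector lymphocytes, read 4.79 and 5.01 in CD4+ cells and 9.99, 10.07 and 9.95 in CD49b+ cells. It rose 34.4-fold (log2 difference 5.11 ± 0.14, adjusted p = 4.62e-08). Gzmb, the serine protease granzyme B, read 4.22 and 4.68 against 9.41, 10.01 and 9.58 and rose 37.3-fold (5.22 ± 0.21, adjusted p = 1.73e-07). Every CD49b+ array lay above both CD4+ arrays for Klrg1 and Gzmb, by far more than the spread within a group. CD25+ cells lay between the other groups, at 8.72, 8.98 and 8.55 for Klrg1 and 6.31, 6.73 and 6.85 for Gzmb.

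Genes of the T cell receptor complex were bright in both groups, with small differences in both directions. Cd3g was higher by 0.28 on the log2 scale, and Cd3d was not called (-0.15). Cd247 was lower by 0.55, with 1 of its 2 other tested probe sets called lower too. Cd3e, an invariant signalling subunit that T cells need to carry their receptor, read 9.44 and 9.49 in CD4+ and 9.72, 9.58 and 9.58 in CD49b+ cells, a difference of 0.16 ± 0.12 that was called only under median centring. Cd4 itself was higher by 0.34 ± 0.10 (adjusted p = 0.0184), a call that was lost when CD4+ replicate 1, CD4+ replicate 2 or CD49b+ replicate 1 was left out. Of the defining markers of natural killer cells, Klrb1c, Klra8 and Klra7 were too dim to test, Tyrobp was lower by 1.81 ± 0.28 on the log2 scale, and Ncr1 was higher by 0.65 ± 0.22, a call lost without CD4+ replicate 1, CD4+ replicate 2 or CD49b+ replicate 2. Of the 7 natural killer markers measured, 4 were tested, 2 of them higher and 1 lower. Averaged over all 7, the log2 level was 4.71 to 4.8 in CD4+ and 4.4 to 4.73 in CD49b+ arrays. The 3 defining neutrophil markers and the 4 defining basophil and mast cell markers with a probe set were all too dim to test. In pooled bulk RNA, fewer cells of a type and less RNA per cell cannot be told apart.

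Across the 11037 genes tested, 3300 were higher in CD49b+ cells, 29.9% of them, and 2592 were lower, 23.5% (limma, Benjamini-Hochberg adjusted p under 0.05). These shares are the background for every list count against CD4+ cells given below. At least 2-fold, 778 genes were higher and 288 lower, and at least 8-fold 76 were higher and 7 lower. The difference was thus lopsided at its extremes, with the steepest changes upward. The median difference over all genes was 0.03, and the median standard error of a difference was 0.111. Of the lower genes, 512 lay under their array's median in CD49b+ cells, and of the higher genes 373 did so in CD4+ cells. A gene under the median may be near background, where its fold change understates the difference. Centring every array on its median moved the median difference to 0.22. It gave 4895 higher and 1357 lower genes, and the upward share of calls was 78.3%, against 56.0% as deposited. With no filter on dim genes, 3526 of 17097 genes were higher and 5597 lower, an upward share of 38.6%.

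**Figure D1:**
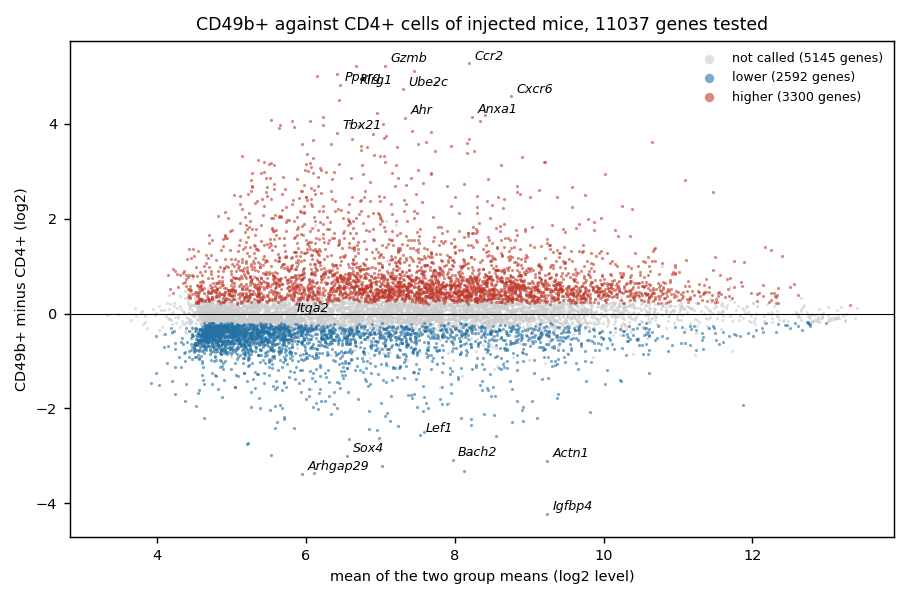
Each of the 11037 tested genes by its mean log2 level over CD4+ and CD49b+ group means (horizontal axis) and its CD49b+ minus CD4+ difference on the log2 scale (vertical axis). Red points are the 3300 genes called higher, blue points the 2592 called lower and grey points the rest; the largest upward differences exceed 5 and the largest downward difference is -4.23, while Itga2 lies at the zero line.

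The genes furthest above CD4+ cells were receptors and effector molecules. Ccr2, the receptor for monocyte chemoattractant chemokines, read 5.38 and 5.74 in CD4+ cells and 10.55, 10.83 and 11.12 in CD49b+ cells. It was 38.8-fold higher (5.28 ± 0.41, adjusted p = 8.41e-06), and its 3 other tested probe sets were called in the same direction. Cysltr1, a receptor for cysteinyl leukotrienes, read 3.60 and 3.68 against 8.61, 8.37 and 8.96 (5.0 ± 0.15). Ltb4r1, the receptor for leukotriene B4, read 4.10 and 4.27 against 8.68, 8.56 and 8.86 (4.51 ± 0.24). Cxcr6, a chemokine receptor of tissue-lodging lymphocytes, read 6.12 and 6.81 against 11.16, 10.83 and 11.15 (4.58 ± 0.43). For these receptors the lowest CD49b+ array stood more than 4 log2 units above the highest CD4+ array.

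Pparg, a nuclear receptor for fatty acid ligands, was near background in CD4+ cells at 3.96 and 4.12 and reached 8.84, 8.84 and 8.91 in CD49b+ cells (4.82 ± 0.18, adjusted p = 1.06e-07). Acadl, the mitochondrial long-chain acyl-CoA dehydrogenase of fatty acid oxidation, rose by 4.23 ± 0.20. Anxa1, annexin A1, rose by 4.14 ± 0.15 from 6.0 and 6.33 to 10.37, 10.22 and 10.34. Ahr, the aryl hydrocarbon receptor, rose by 4.13 ± 0.19 from 5.20 and 5.33 to 9.55, 9.27 and 9.38 on its brighter probe set, while its 1 other tested probe set was not called (-0.01). Prxl2a, a peroxiredoxin-like protein (4.88 ± 0.28), and AA467197 (5.04 ± 0.18) were also among the 15 highest, as were the cell division genes Ube2c, Mki67 and Bub1.

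**Figure D2:**
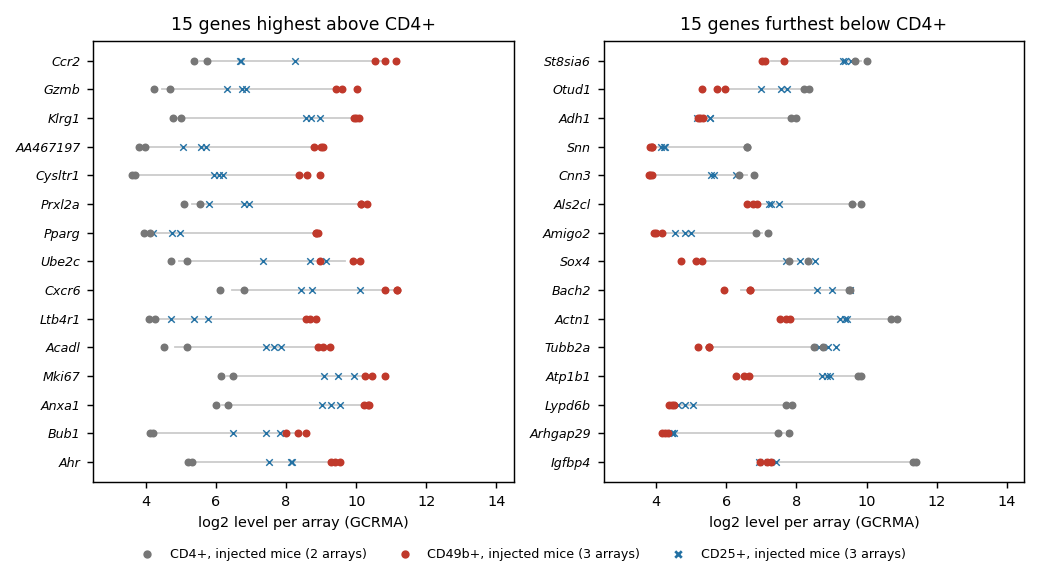
Log2 level on every array for the 15 named genes furthest above (left) and furthest below (right) CD4+ cells, with CD4+ arrays as grey dots, CD49b+ arrays as red dots, CD25+ arrays as blue crosses, and a grey line joining the CD4+ and CD49b+ means. The genes were chosen so that CD49b+ and CD4+ arrays do not overlap, and CD25+ arrays lie mostly in between.

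Among the genes furthest below CD4+ cells, Igfbp4 led. Igfbp4, which encodes a binding protein for insulin-like growth factors, read 11.40 and 11.32 in CD4+ cells and 6.96, 7.15 and 7.28 in CD49b+ cells. It was 18.7-fold lower (-4.23 ± 0.15, adjusted p = 6.58e-08), and all 5 of its other tested probe sets were called lower too. Actn1, the actin cross-linker alpha-actinin, fell from 10.88 and 10.70 to 7.82, 7.54 and 7.70 (-3.1 ± 0.10). Atp1b1, a subunit of the sodium pump, fell from 9.83 and 9.74 to 6.26, 6.65 and 6.50 (-3.31 ± 0.12). Tubb2a, a beta tubulin, fell from 8.51 and 8.75 to 5.51, 5.52 and 5.20 (-3.22 ± 0.16). Against CD25+ cells Igfbp4 did not differ detectably (-0.05, adjusted p = 0.836), while Actn1, Atp1b1 and Tubb2a were lower (-1.67, -2.38 and -3.48). Arhgap29, Lypd6b, Amigo2, Cnn3 and Snn ended under the array median in CD49b+ cells, at differences from -3.38 to -2.72.

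Genes of cell division rose as a block. All 31 mitosis genes tested were higher, each at least 2-fold, with a median difference of 2.82 against 0.03 over all genes and against the 29.9% of all genes called higher. Mki67, the proliferation antigen Ki-67, read 6.15 and 6.48 in CD4+ cells and 10.25, 10.44 and 10.82 in CD49b+ cells (4.19 ± 0.26, adjusted p = 1.68e-06). Ube2c, a ubiquitin-conjugating enzyme of the anaphase-promoting complex, read 4.71 and 5.18 against 8.96, 9.92 and 10.12 (4.73 ± 0.49). Bub1, a spindle checkpoint kinase, read 4.19 and 4.13 against 7.99, 8.33 and 8.57 (4.14 ± 0.32). The mean level of the 31 genes was 5.32 and 5.57 on the CD4+ arrays and 7.83, 8.33 and 8.70 on the CD49b+ arrays. Within the CD49b+ group, replicate 1 was lowest and replicate 3 highest. In the separate comparison with CD25+ cells, which shares the CD49b+ arrays, 26 of the 31 were higher and none lower, where 17.5% of all genes were called higher and 12.4% lower. The median difference from CD25+ cells was 1.12.

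Promoters were read from RefSeq (mouse build GRCm38.p6, 250 bases before to 50 after the transcript start), which matched 8936 of the 11037 tested genes. The letters CCAAT, or their reverse complement ATTGG, stood in at least 1 listed promoter of 21 of the 25 mitosis genes with an entry (84.0%) and of 42.4% of all 8936 genes. Among genes called higher the share was 43.9% and among genes called lower 41.0%. It was 46.4% for genes higher and 49.1% for genes lower at least 2-fold. Of the 25 DNA replication genes with an entry, 16 held these letters (64%). The pair below is shown because both genes are among the 15 highest, with every match to CCAAT or ATTGG in capitals. The Ube2c promoter (chr2:164769679-164769978, plus strand) holds 6 matches, of which 1 pair overlaps, and the Mki67 promoter (chr7:135716330-135716629, minus strand) holds 3.
Ube2c: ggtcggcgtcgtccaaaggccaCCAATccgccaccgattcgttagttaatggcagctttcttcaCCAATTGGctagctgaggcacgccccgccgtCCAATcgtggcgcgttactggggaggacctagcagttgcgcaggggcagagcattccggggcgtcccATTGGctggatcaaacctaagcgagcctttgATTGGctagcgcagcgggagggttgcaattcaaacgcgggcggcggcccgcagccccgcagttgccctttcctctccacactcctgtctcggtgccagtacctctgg
Mki67: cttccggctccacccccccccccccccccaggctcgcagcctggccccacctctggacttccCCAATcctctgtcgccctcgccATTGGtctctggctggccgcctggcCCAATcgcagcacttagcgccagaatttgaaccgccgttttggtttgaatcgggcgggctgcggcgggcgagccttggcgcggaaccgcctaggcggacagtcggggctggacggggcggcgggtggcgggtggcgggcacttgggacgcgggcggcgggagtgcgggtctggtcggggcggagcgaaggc
A match is a string of letters in a window and was not tested as a binding site.

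DNA replication genes were also mostly higher, with a smaller median difference. Of 29 tested, 24 were higher and none lower, with a median of 1.61. Rrm2, a subunit of ribonucleotide reductase, read 6.11 and 6.61 in CD4+ cells against 9.63, 10.00 and 10.49 (3.68 ± 0.34). Uhrf1, which maintains DNA methylation through replication, rose by 3.32 ± 0.21, and Tk1, thymidine kinase, by 2.84 ± 0.17. Without pairing, 4 of the 29 were higher than in CD25+ cells, a share near the 17.5% of all genes, with a median of 0.13. With the replicate number as a block, which pairs CD49b+ and CD25+ samples, 11 were higher. That fit called 2347 of all 11037 genes higher, so the reading of this list depends on the pairing. Of the 21 genes of G1 cyclins, kinases and inhibitors tested, 13 were higher and 1 lower. The cyclins diverged: Ccne2, cyclin E2, rose from 3.95 and 3.93 to 6.40, 6.27 and 7.16 (2.67 ± 0.28), and Ccnd1, cyclin D1, fell from 6.75 and 6.84 to 4.49, 4.27 and 4.38 (-2.42 ± 0.14).

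**Figure D3:**
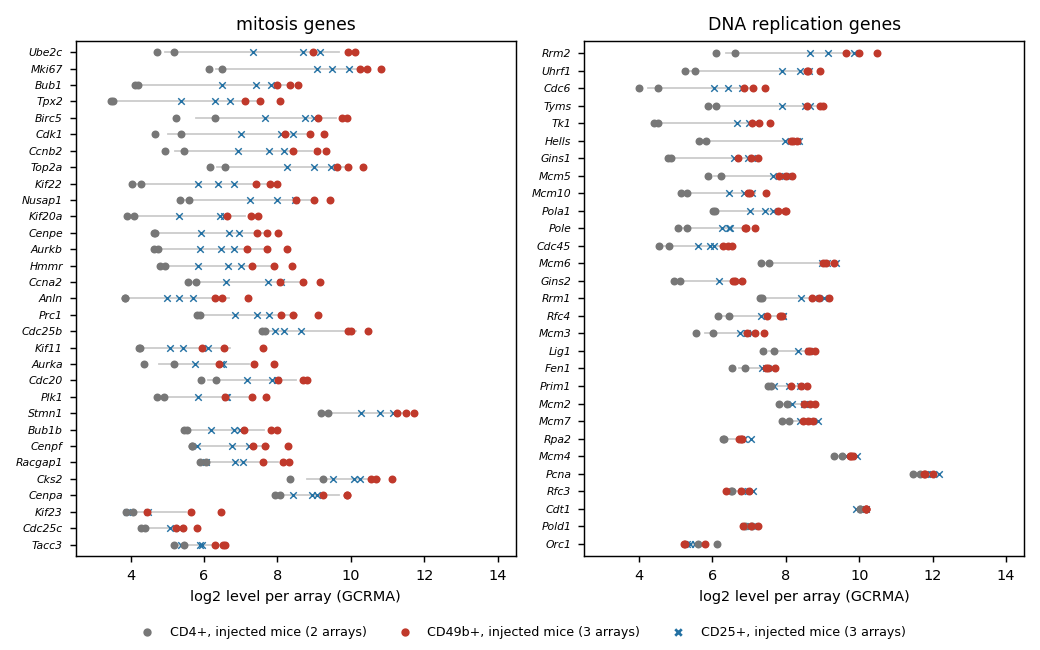
Log2 level on every array for the 31 mitosis genes (left) and the 29 DNA replication genes (right) tested, in the order of the CD49b+ minus CD4+ difference; grey dots are CD4+, red dots CD49b+ and blue crosses CD25+ arrays, and grey lines join CD4+ and CD49b+ means. All 31 mitosis genes and 24 of the 29 replication genes were called higher, against 29.9% of all genes.

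Cytotoxic granule genes split. Of 21 tested, 14 were higher and 4 lower, with a median of 1.11. At least 2-fold, 11 were higher and 2 lower, and differences ran from -1.55 to 5.22. Gzma, granzyme A, read 4.24 and 4.25 in CD4+ cells and 7.70, 8.56 and 8.38 in CD49b+ cells (3.97 ± 0.26). Nkg7, a granule membrane protein of cytotoxic lymphocytes, read 5.05 and 5.89 against 8.17, 8.63 and 7.96 (2.78 ± 0.39). The cathepsin inhibitors Ctla2b and Ctla2a rose by 3.68 ± 0.25 and 3.20 ± 0.36, although probes may not separate these closely related copies. Prf1, perforin, which lets granzymes into the target cell, went the other way, from 5.76 and 5.79 to 4.52, 4.74 and 4.75 (-1.10 ± 0.11, adjusted p = 3.07e-05). Eomes, a T-box factor of cytotoxic lymphocytes, fell by 0.91 ± 0.10 on the log2 scale from 6.44 and 6.48 to 5.57, 5.49 and 5.58. The 1 other tested probe set of Eomes was called lower too (-0.64), while that of Prf1 was not called (-0.13). Gzmm, granzyme M, was lower as well (-0.37 ± 0.09), a call lost under quantile normalization (-0.20) and median centring (-0.18), and Gzmk and Gzmc were too dim to test.

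The promoters of Gzmb and Nkg7, granule genes that rose, are shown next. Tbx21 and Runx3, which encode T-box and Runx factors, were also higher, and a link between them and these promoters was not tested. In Gzmb (chr14:56262285-56262584, minus strand) the capitals mark, in order, an AP-1 motif (TGANTCA) and a Runx motif (TGTGGTT). In Nkg7 (chr7:43436888-43437187, plus strand) they mark a T-box motif (AGGTGTGA). The Gzmb promoter held no T-box match, and the Nkg7 promoter held no Runx or AP-1 match.
Gzmb: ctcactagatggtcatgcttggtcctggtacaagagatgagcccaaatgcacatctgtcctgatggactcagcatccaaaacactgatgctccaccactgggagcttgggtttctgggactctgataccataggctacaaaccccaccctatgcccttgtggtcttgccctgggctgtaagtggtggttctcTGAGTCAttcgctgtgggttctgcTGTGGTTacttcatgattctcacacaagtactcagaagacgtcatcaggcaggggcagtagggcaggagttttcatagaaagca
Nkg7: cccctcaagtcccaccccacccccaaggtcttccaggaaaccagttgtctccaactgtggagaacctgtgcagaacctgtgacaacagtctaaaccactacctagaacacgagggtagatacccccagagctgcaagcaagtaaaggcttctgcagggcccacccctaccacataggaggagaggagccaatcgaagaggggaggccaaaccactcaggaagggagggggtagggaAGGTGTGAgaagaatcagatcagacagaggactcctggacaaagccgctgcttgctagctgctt
Both strands were searched. Over all 8936 genes, 6.38% held the AP-1, 4.70% the Runx and 1.2% the T-box letters. The shares were 6.40%, 5.20% and 1.24% among genes called higher and 7.41%, 4.88% and 1.34% among genes called lower, each close to the share over all genes. For genes higher at least 2-fold the shares were 10.1%, 5.86% and 1.95%, and for the 226 genes with an entry that were lower at least 2-fold they were 7.08%, 4.42% and 0.442%, the last being 1 gene.

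Transcription factors of effector and memory T cells were mostly higher, 20 of 34 tested against 4 lower, with a median of 0.96. Tbx21, the T helper 1 factor T-bet, read 4.50 and 4.53 in CD4+ cells against 8.67, 7.91 and 8.40 (3.81 ± 0.41). Gata3, the T helper 2 factor, read 7.96 and 8.50 against 10.84, 10.95 and 10.93 (2.68 ± 0.14). Both factors that define opposing helper fates were thus higher in the same pooled populations, which does not show them in the same cell. Epas1, the hypoxia-inducible factor HIF-2 alpha, rose by 3.38 ± 0.21 and Maf by 3.1 ± 0.10. Rora, the retinoid-related orphan receptor alpha, rose by 1.99 ± 0.16, and Prdm1, which encodes Blimp-1, by 1.82 ± 0.08. Rora and Prdm1 did not differ detectably from CD25+ cells (-0.07 and -0.03). Against CD25+ cells 11 of the 34 were higher and 7 lower, where 17.5% and 12.4% of all genes were.

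Genes of the helper lists were compared next. Of 12 T helper 1 genes tested, 9 were higher and none lower. The receptor chains Il18rap (2.72 ± 0.12) and Il12rb1 (1.67 ± 0.08) rose with Cxcr3, the receptor for interferon-induced chemokines (2.69 ± 0.22). Ifng read 7.25 and 8.58 in CD4+ cells and 9.91, 10.28 and 8.35 in CD49b+ cells, with overlapping groups. Its call (1.6 ± 0.53, adjusted p = 0.0283) was lost without CD4+ replicate 1, CD49b+ replicate 1 or CD49b+ replicate 2. Of 10 T helper 2 genes, 8 were higher and 2 lower, Il4ra and Stat6, with 1 lower under median centring and without CD4+ replicate 1, CD4+ replicate 2, CD49b+ replicate 1 or CD49b+ replicate 3. Il4 read 4.16 and 4.35 against 6.99, 7.19 and 6.47 (2.63 ± 0.30), and Il13 4.43 and 4.42 against 5.43, 5.49 and 5.23 (0.96 ± 0.09). Il4ra, the interleukin 4 receptor chain, fell by 0.87 ± 0.13 on the log2 scale.

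Of 12 T helper 17 genes, 7 were higher and none lower. Il17a itself read 5.30 and 5.67 against 5.28, 5.49 and 5.24 and was not called (-0.15 ± 0.13). The members that rose were receptors and factors shared with other effector cells, Ltb4r1, Ahr, Il1r1 (2.07 ± 0.18), Rora, Ccr6 (1.48 ± 0.17), Tmem176a and Batf. Of 12 follicular helper genes, 2 were higher and 6 lower. Bcl6, the factor that directs that fate, read 6.72 and 6.80 in CD4+ cells and 5.18, 5.26 and 4.88 in CD49b+ cells (-1.65 ± 0.18), and Cxcr5, its homing receptor, fell by 1.00 ± 0.21 to a level under the array median.

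Among 13 secreted cytokines tested, 8 were higher and 1 lower. Csf1, the macrophage growth factor, read 5.95 and 6.09 in CD4+ cells and 9.28, 9.49 and 9.56 in CD49b+ cells (3.42 ± 0.12, adjusted p = 6.58e-08), with its 3 other tested probe sets called the same way. Csf2, which encodes GM-CSF, read 3.92 and 4.01 against 6.67, 6.41 and 6.35 (2.51 ± 0.12). Lta, lymphotoxin alpha, was the lower one, from 6.87 and 7.18 to 6.19, 6.39 and 5.99 (-0.83 ± 0.18). Il5, Il9, Il3 and Il6 were too dim to test.

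Receptors for tissue and inflamed sites were higher in 9 of 12 tested, with 1 lower and a median of 1.35. Beside Ccr2, Cxcr6, Ltb4r1 and Cxcr3, they held Ccr10, a skin and mucosal homing receptor (1.22 ± 0.16), and Ccr4 (1.03 ± 0.11). Itgae, the CD103 integrin chain that binds epithelial cadherin, read 4.19 and 4.33 in CD4+ cells against 8.06, 8.07 and 7.63 (3.66 ± 0.17). Itgb1, the beta 1 chain that pairs with CD49b, read 8.36 and 8.72 against 11.48, 11.32 and 11.65 (2.94 ± 0.17), with 3 other tested probe sets called higher as well. The partner chain of CD49b was thus higher while the transcript of CD49b was not called. Against CD25+ cells Itgb1 was 1.53 higher, and Itgae did not differ detectably (-0.09, adjusted p = 0.695). Of 24 integrin and adhesion genes, 13 were higher and 7 lower, among the latter Itga6 (-1.2 ± 0.14) and Cd9 (-1.17 ± 0.14). The shares were 54.2% and 29.2%, against 29.9% and 23.5% of all genes.

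Memory and activation surface genes were higher in 14 of 18 tested and lower in none. Cd44, the hyaluronan receptor gained by antigen-experienced T cells, read 8.61 and 8.85 in CD4+ cells and 10.38, 10.76 and 10.71 in CD49b+ cells (1.89 ± 0.15). Il2rb, a signalling chain of the interleukin 2 and interleukin 15 receptors, read 7.30 and 7.83 against 10.30, 9.99 and 10.06 (2.56 ± 0.15). Cd69, an early activation antigen, read 11.14 and 11.76 against 11.88, 12.26 and 10.26 and was not called (0.02 ± 0.62).

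Annexins, S100 proteins, galectins and their cytoskeletal companions were higher in 21 of 22 tested, with a median of 1.75 and none lower. S100a6, a small calcium-binding protein, read 8.19 and 9.49 in CD4+ cells against 12.45, 12.51 and 12.41 (3.62 ± 0.31), and S100a4 9.27 and 10.11 against 12.50, 12.55 and 12.47 (2.81 ± 0.20). Lgals3 and Lgals1, galectins that bind surface sugars, rose by 4.06 ± 0.17 and 2.56 ± 0.19. CD4+ replicate 2 lay above replicate 1 for each of these 4 genes, and both lay below every CD49b+ array. In the comparison with CD25+ cells, 18 of the 22 were higher and none lower, where 17.5% and 12.4% of all genes were. Lgals3 was not among the 18 and did not differ detectably from CD25+ cells (-0.06, adjusted p = 0.825).

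Regulatory T cell genes were higher than in CD4+ cells but, for the core genes, lower than in CD25+ cells. Of 27 signature genes tested, 21 were higher than in CD4+ cells and 3 lower, with a median of 1.52. In the comparison with CD25+ cells 3 were higher and 16 lower, with a median of -0.96. Over all genes, 17.5% were higher and 12.4% lower than in CD25+ cells. Both comparisons use the same CD49b+ arrays. Foxp3, the factor that defines conventional regulatory T cells, read 4.57 and 4.70 in CD4+ cells, 6.58, 6.52 and 6.26 in CD49b+ cells, and 8.25 on average in CD25+ cells. It was 1.81 ± 0.12 above CD4+ and 1.80 ± 0.11 below CD25+ cells (adjusted p = 3.18e-06 and 2.97e-06). Il2ra, which encodes CD25, read 4.18 and 4.16 against 6.26, 6.37 and 6.23, with 8.83 on average in CD25+ cells, which were sorted on that protein. Ikzf2, the factor Helios, read 8.04 and 8.21 against 10.14, 9.93 and 9.80, with 11.52 in CD25+ cells. For these 3 genes the CD49b+ arrays lay between the other groups without overlap, an intermediate mean that pooled RNA cannot resolve into cells.

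Some signature genes did not follow Foxp3. Fgl2, a secreted fibrinogen-like inhibitor of T cells, read 4.6 and 4.46 in CD4+ cells and 7.76, 7.29 and 7.54 in CD49b+ cells (3.0 ± 0.17), and was 1.55 ± 0.15 above CD25+ cells. Sytl2, a vesicle transport protein, rose by 2.73 ± 0.12 and was 1.68 ± 0.11 above CD25+ cells. Ebi3, a subunit of interleukin 35, rose by 2.59 ± 0.21 and did not differ detectably from CD25+ cells (-0.10 ± 0.19, adjusted p = 0.74). Plagl1, Izumo1r and Gpm6b were the 3 lower members. The call for Plagl1 was lost without CD4+ replicate 1.

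**Figure D4:**
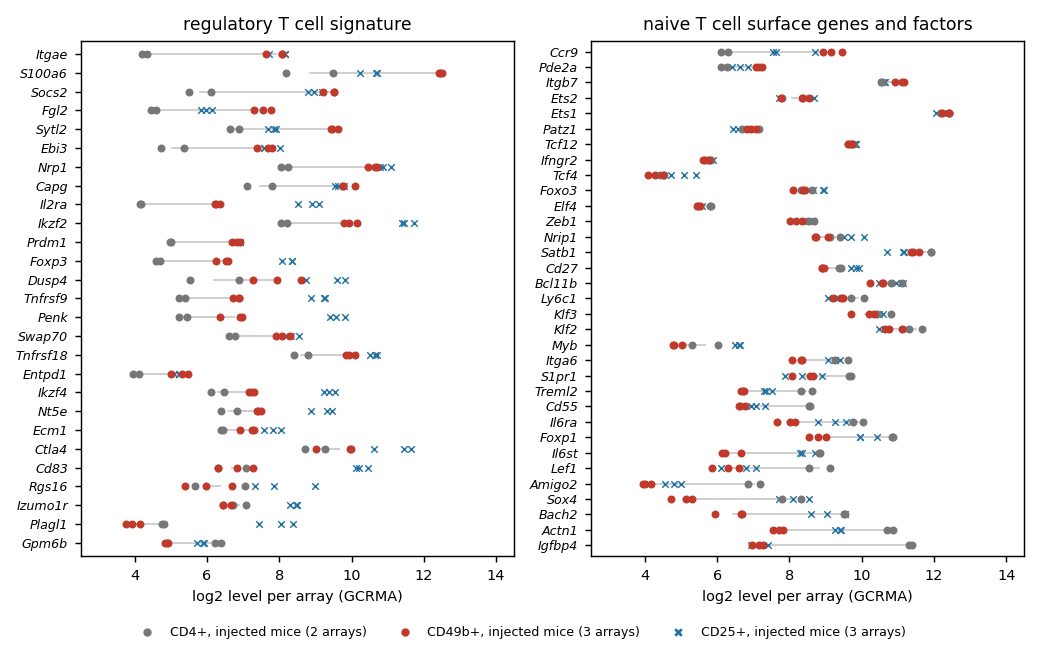
Log2 level on every array for the 27 tested genes of the regulatory T cell signature (left) and the 33 tested surface genes and transcription factors of naive T cells (right), ordered by the CD49b+ minus CD4+ difference; grey dots are CD4+, red dots CD49b+ and blue crosses CD25+ arrays. Foxp3, Il2ra and Ikzf2 of CD49b+ cells lie between the other groups, and 4 naive factors, Bach2, Sox4, Lef1 and Foxp1, lie at least 2 log2 units below CD4+ cells.

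Among 21 genes tied to type 1 regulatory T cells, 13 were higher and 1 lower, with a median of 0.73. The rises came from Gzmb, Ahr, Maf, Il1r1, Icos (1.32 ± 0.08) and others of the effector lists, while Il10 and Lag3, which are widely used to define such cells, did not pass. Il10 read 4.70 and 4.90 in CD4+ cells and 5.47, 5.81 and 5.01 in CD49b+ cells (0.63 ± 0.33, adjusted p = 0.131), Lag3 4.92 and 5.14 against 4.82, 4.86 and 4.94 (-0.16 ± 0.09, adjusted p = 0.162). All 3 Il10 values of CD49b+ cells lay above both CD4+ values, yet the gene was called only with replicate number as a block. Ctla4, an inhibitory receptor, read 8.70 and 9.25 against 9.95, 9.99 and 9.0 and was called only when CD49b+ replicate 3 was left out or replicate number was used as a block. Pdcd1lg2, a ligand of PD-1, rose by 1.94 ± 0.10. Of 12 coinhibitory receptor genes, 5 were higher and 2, Btla (-0.77 ± 0.14) and Vsir (-0.61 ± 0.12), were lower. Their shares were 41.7% and 16.7%, against 29.9% and 23.5% of all genes.

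Suppressive and secreted mediators were higher in 12 of 15 tested and lower in 1. Metrnl, a secreted meteorin-like protein, read 4.06 and 4.25 in CD4+ cells against 6.71, 6.61 and 6.24 (2.37 ± 0.20). Entpd1, which encodes CD39 and degrades extracellular ATP, rose by 1.23 ± 0.13, and Nt5e, the adenosine-producing CD73, by 0.82 ± 0.18. Tgfb3 rose by 1.07 ± 0.12 and Tgfb1 by 0.29 ± 0.09. Ptgs2, the prostaglandin synthase COX-2, fell by 1.46 ± 0.09 on the log2 scale, between levels under the array median in both groups.

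The TNF receptor family divided into 10 higher and 9 lower of 21 tested. Tnfrsf4, which encodes the costimulatory receptor OX40, read 7.13 and 7.97 in CD4+ cells and 9.05, 9.08 and 9.02 in CD49b+ cells (1.5 ± 0.19). Tnfrsf9, 4-1BB, rose by 1.52 ± 0.12, and Tnfsf11, the ligand RANKL, by 2.13 ± 0.15. Cd27, which marks naive and early memory cells, fell by 0.49 ± 0.08 on the log2 scale, Fas by 0.81 ± 0.09 and Tnfsf8 by 1.12 ± 0.17. The lower count fell to 5 under median centring and without CD4+ replicate 2 or CD49b+ replicate 1.

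The naive program was lower. Of 17 surface and recirculation genes tested, 13 were lower and 3 higher, with a median of -1.2. Il6st, the shared signalling chain gp130, read 8.82 and 8.85 in CD4+ cells and 6.65, 6.23 and 6.12 in CD49b+ cells (-2.51 ± 0.17). Il6ra, the interleukin 6 receptor, read 10.03 and 9.77 against 7.66, 8.01 and 8.14 (-1.96 ± 0.21), so both chains of that receptor fell. Cd55, a complement regulator, fell by 1.89 ± 0.11 on the log2 scale, and S1pr1, the receptor for exit from lymph nodes, by 1.25 ± 0.25. Ccr9, a gut homing receptor, went against its list, from 6.11 and 6.29 to 8.94, 9.14 and 9.44 (2.97 ± 0.31).

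Of 16 transcription factors of naive T cells, 9 were lower and none higher, with a median of -0.42. Bach2, a repressor of effector genes, read 9.50 and 9.52 in CD4+ cells and 6.66, 5.93 and 6.69 in CD49b+ cells (-3.09 ± 0.28). Sox4 read 8.32 and 7.78 against 5.14, 4.72 and 5.30 (-3.0 ± 0.26), Lef1 9.11 and 8.53 against 5.86, 6.29 and 6.60 (-2.57 ± 0.29), and Foxp1 10.87 and 10.83 against 9.0, 8.78 and 8.55 (-2.07 ± 0.17, with 6 other tested probe sets called lower). CD25+ cells averaged 9.05 for Bach2 and 8.12 for Sox4, close to the CD4+ values, but 6.66 for Lef1. The count of 9 fell to 5 without CD4+ replicate 1 and to 4 under median centring, the latter being these 4 genes.

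TGF-beta pathway genes were divided, 8 higher and 9 lower of 20, with the higher count at 5 without CD4+ replicate 2. As deposited, the shares were 40% and 45%, against 29.9% and 23.5% of all genes. The receptor Tgfbr3 fell from 9.55 and 9.34 to 7.39, 7.09 and 7.49 (-2.12 ± 0.13), the inhibitor Smad7 fell by 1.73 ± 0.29 on the log2 scale and Smad1 by 1.38 ± 0.11. The signal transducer Smad3 rose by 1.21 ± 0.09 and Furin, which processes the ligand, by 1.46 ± 0.11.

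Survival and death genes changed around Bcl2, which opposes apoptosis at mitochondria. Bcl2 read 10.20 and 9.90 in CD4+ cells and 7.96, 7.67 and 7.69 in CD49b+ cells (-2.27 ± 0.15). Its pro-death relatives Bak1 (1.74 ± 0.10), Bad (1.5 ± 0.14) and the inflammatory caspase Casp1 (2.29 ± 0.18) rose. The pro-survival members Bcl2a1a (1.34 ± 0.17), whose close copies probes may not separate, and Bcl2l1 (0.71 ± 0.09) rose too, although the mean of the Bcl2l1 probe sets differed by -0.10 and was not called. Of 23 Bcl2 family and caspase genes, 11 were higher and 2 lower.

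Energy and protein turnover genes showed small, broad shifts. Of 19 glycolysis and glucose transport genes, 13 were higher and 4 lower. Slc2a3, the glucose transporter GLUT3, read 8.59 and 8.88 in CD4+ cells and 10.52, 10.47 and 10.58 in CD49b+ cells (1.79 ± 0.10), and Ldhb, the lactate dehydrogenase B chain, fell by 1.40 ± 0.13 on the log2 scale. Of 31 proteasome subunits, 25 were higher and none lower, with a median of 0.48. Of 44 respiratory chain and ATP synthase genes, 33 were higher and none lower, with a median of 0.41. The respiratory count was 21 under quantile normalization, 44 under median centring and 15 without CD4+ replicate 1. Of 49 cytosolic ribosomal protein genes, 10 were lower and none higher, at a median of -0.13. The lower share was 20.4%, no more than the 23.5% of all genes. Under median centring 3 were higher and none lower, at a median of 0.07, so their direction depends on the scaling. The count of 10 also fell to 1 without CD4+ replicate 2, to 4 without CD4+ replicate 1, to 6 without CD49b+ replicate 1 and to 3 without CD49b+ replicate 3.

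Signalling below the T cell receptor had no single direction. Of 31 genes, 8 were higher and 11 lower as deposited, 13 and 6 under median centring, and 7 and 6 without CD4+ replicate 1. The higher share was near the 29.9% of all genes, and the lower share stood beside 23.5%. Txk, a Tec family kinase, read 8.76 and 8.20 in CD4+ cells and 6.58, 6.35 and 6.61 in CD49b+ cells (-1.97 ± 0.21), and its relative Tec fell by 1.40 ± 0.09. Ubash3b, a phosphatase that restrains the receptor, rose by 1.25 ± 0.08.

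Immediate early genes, which respond within minutes to stimulation, varied widely among replicates. Their median SD among CD49b+ replicates was 0.701, against 0.111 over all genes. The mean of the 26 genes was 9.05 and 9.61 on the CD4+ arrays and 9.30, 9.60 and 8.46 on the CD49b+ arrays. Atf3 read 7.91 and 8.69 against 8.65, 10.08 and 6.0 and was not called. Ier3 was the 1 higher member (2.58 ± 0.30), and 4 were lower, a count of 1 without CD4+ replicate 2. Ifng, Cd69 and Ctla4 above were also highest on CD49b+ replicate 2 and lowest on replicate 3 within their group, and the part of this spread in their tests was not tested.

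Several MHC class II chain genes were lower in CD49b+ cells. H2-Ab1 read 7.87 and 8.24 in CD4+ cells and 5.24, 6.29 and 5.36 in CD49b+ cells (-2.43 ± 0.35), H2-Aa 9.14 and 9.51 against 6.86, 7.66 and 6.79 (-2.22 ± 0.29), and H2-Ob 7.20 and 6.89 against 4.71, 4.72 and 4.47 (-2.42 ± 0.18). H2-Oa was higher (1.06 ± 0.21), and H2-Eb1 and H2-DMa were not called (-0.34 and 0.28). Of the 14 presentation genes tested, 6 were lower and 4 higher, the latter count being 2 without CD4+ replicate 1. The lower share was 42.9%, against 23.5% of all genes, and the higher share of 28.6% was near the 29.9% of all genes. Markers of other cells that carry class II also differed. Of 5 B cell markers tested, 3 were lower, among them Ly86 (-2.18 ± 0.20), and 1, Cd79b, was higher, while the mean level of the 5 defining B cell markers with a probe set was 4.32 to 4.42 in CD4+ and 4.33 to 4.41 in CD49b+ arrays. Of myeloid and dendritic cell markers, 9 of 15 tested were lower and none higher, with a median of -0.71. Of the 7 defining myeloid markers, Itgax, Adgre1, Cd68 and Flt3 were lower, Csf1r was not called, and Lyz2 and Itgam were too dim to test. The mean log2 level of the 7 was 5.04 to 5.08 in CD4+ and 4.52 to 4.57 in CD49b+ arrays. The part of such cells in the class II difference was not tested.

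**Figure D5:**
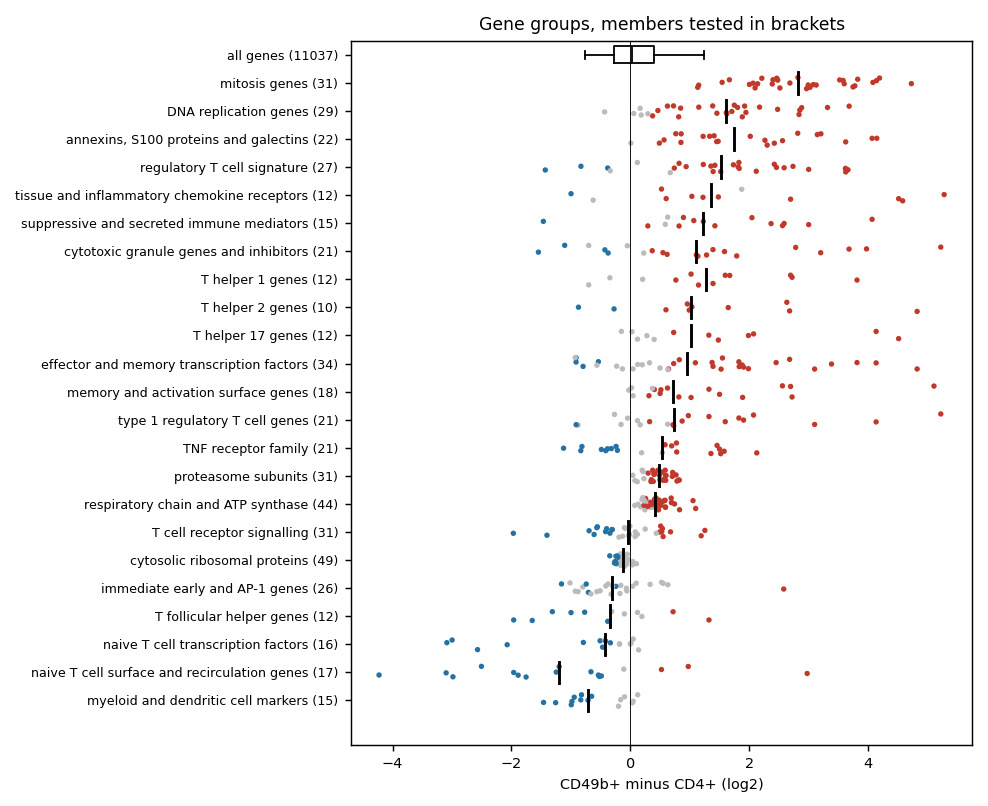
CD49b+ minus CD4+ differences on the log2 scale (horizontal axis) for 23 gene groups, with the number of tested members in brackets; each point is a gene, red if called higher, blue if called lower and grey otherwise, and black bars are medians. The box at the top spans the quartiles of all 11037 genes with whiskers at the 5th and 95th percentiles; the medians run from 2.82 for mitosis genes to -1.2 for naive surface genes, and the small negative median of the ribosomal proteins turns positive under median centring.

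Set against CD25+ cells, which came from mice given the same injections, 1926 genes were higher in CD49b+ cells and 1371 lower, 17.5% and 12.4% of those tested. Some of the genes that separated the sorted subsets most did not separate CD49b+ from CD4+ cells. Pdlim4, an actin-associated LIM protein, read 9.44 and 9.98 in CD4+ cells, 9.60, 9.66 and 9.58 in CD49b+ cells, and 5.06, 5.83 and 5.91 in CD25+ cells. Bmp2 and Kcnk1 were under the array median in both CD4+ and CD49b+ cells and averaged 7.80 and 7.89 in CD25+ cells. Cd83, a surface protein of activated cells, read 6.30 and 7.08 in CD4+, 6.84, 7.28 and 6.30 in CD49b+ and 10.22, 10.46 and 10.12 in CD25+ cells. Pparg (4.22 ± 0.16 above CD25+ cells), Plac8 (3.84 ± 0.25), Ccr2 (3.61 ± 0.37) and Epas1 (3.20 ± 0.19) stood above both of the other populations of injected mice.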

How the data were processed

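Affymetrix whole-genome mouse arrays were hybridized with labelled RNA made from 100 ng of total RNA per sample. The deposited values are log2 expression levels per probe set, which the authors made with GCRMA, a method of sequence-based background correction, normalization and probe summary, with the software Expression Console 1.2.1 of Affymetrix, as the submitters' processing notes record. No source used here says if the 10 arrays shared 1 normalization. The number of arrays limits the precision.

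Probe sets were named through the platform annotation. Of 45037 non-control probe sets, 28898 had 1 gene symbol, 551 several and 15588 none; 28689 matched a current RefSeq gene number and 0 symbols changed. A gene was tested if its level was above the array's median (50th percentile) on at least 2 arrays. A group-means model over all 4 groups was fitted with limma 3.58.1 in R 4.3.3 (6 residual degrees of freedom, empirical Bayes moderation), with Benjamini-Hochberg adjustment over 11037 genes and a threshold of 0.05. All adjusted p-values are from this fit, errors of differences are standard errors, and fold changes are on the deposited scale. The fit was tested on simulated data. The labels do not say that replicates came from separate pools, so p-values measure the spread between arrays, which may be technical.

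Named genes were the 15 highest and 15 lowest called genes whose arrays did not overlap (gene models passed over), 10 marker genes, the called genes of each list with the largest changes (at most 6 a list), the uncalled genes of lists of 12 or fewer, and the 10 highest and 10 lowest against CD25+ cells; the other genes named (Atf3, Batf, Bcl2l1, Cd27, Cd55, Cd69, Entpd1, Fas, Gpm6b, Gzmm, H2-DMa, H2-Eb1, Ikzf2, Il17a, Izumo1r, Lta, Nt5e, Stat6, Tgfb1, Tgfb3, Tnfsf8, dim genes and some cell type markers) were chosen after their values were seen. The comparison and the gene lists were chosen with earlier results of these data known. Deviations from the group means correlated at 0.158, 0.366 and 0.641 between CD49b+ and CD25+ replicates of the same number, so those numbers were taken to pair the samples. Alternatives were other filters, quantile normalization, median centring, other probe set rules, array weights, a replicate block, other comparators and leaving out each array.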

Additional observations from a re-analysis of the deposited data

How the results depend on the processing

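Against CD4+ cells, leaving out 1 array at a time gave 2497 to 3060 higher and 1848 to 2380 lower genes, and against CD25+ cells 1390 to 1912 and 1080 to 1405. The lower count depended on the filter and scale: 5597 with no filter on dim genes (3526 higher), 1230 with the stricter filter, 1357 under median centring and 3997 with every probe set taken alone. A 2-fold threshold left 778 higher and 288 lower against CD4+ cells, and 277 and 285 against CD25+ cells. Of those 1066 genes called at 2-fold against CD4+ cells, 1060 kept their call under median centring, 1064 under quantile normalization, and 1040 to 1059 with 1 array left out. With the replicate number as a block, 3528 were higher and 2664 lower than in CD4+ cells; the deviations of the 2 shared numbers correlated at 0.088 and 0.522, too few pairs to treat as pairing. Against CD25+ cells the block gave 2347 higher and 1677 lower; of the CD25+ values and list counts printed, it moved the DNA replication count alone by over 1.5 times and changed no call of a gene given with its CD25+ difference. Of 291 named genes tested, 252 were called. Differences that reversed were Cd83 at -1.13, H2-Oa at -0.27, Slamf6 at -0.55 and Pdcd1 at -1.05 with CD4+ cells of naive mice as comparator, Pdcd1 at -0.16 with all 4 CD4+ arrays, and Psma1 at -0.10 and Rpl13 at 0.48 with the mean of a gene's probe sets. The cause was not tested. Of 92 named genes called that have other tested probe sets, 75 had at least 1 called the same way and 5 had 1 called the opposite way; for Ahr, Cd4, Prf1, Tmem176a and Vsir the 1 other tested probe set was not called. Levels near background, 2 CD4+ arrays and unknown pools limit what small differences can show.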

Other observations

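Of 28 interferon-inducible genes tested, 7 were higher than in CD4+ cells and 6 lower, shares near the 29.9% and 23.5% of all genes, and under median centring 10 and 3. Mx1, an antiviral GTPase, read 4.27 and 4.35 in CD4+ cells against 5.85, 5.68 and 5.41 (1.34 ± 0.14), and Gbp3, a guanylate-binding protein, 8.86 and 9.15 against 10.39, 10.36 and 10.22 (1.32 ± 0.12). Iigp1, an immunity-related GTPase, fell from 7.29 and 7.04 to 5.37, 6.13 and 6.11 (-1.29 ± 0.26), and Ifit2 fell by 1.17 ± 0.20 on the log2 scale. No group of 4 or more samples was available for a check of outlying arrays.

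Genes of protein folding in the endoplasmic reticulum were higher in 17 of 30 tested and lower in 4, the latter count being 2 without CD4+ replicate 2. Atf6, a sensor of unfolded proteins, read 5.41 and 5.14 in CD4+ cells against 7.22, 6.96 and 6.95 (1.77 ± 0.12), while the chaperone gene Dnajb9 fell by 1.40 ± 0.40, a call lost without either CD4+ replicate. Of 22 genes of cholesterol and fatty acid synthesis, 13 were higher and 3 lower, the latter count being 1 without CD4+ replicate 1, without CD4+ replicate 2, without CD49b+ replicate 3 and under median centring. Ebp, a sterol isomerase, read 7.90 and 8.17 against 9.49, 9.71 and 9.55 (1.55 ± 0.12), and the cholesterol exporter gene Abcg1 fell by 0.91 ± 0.12. Rgs10, a regulator of G protein signalling, fell from 9.95 and 10.04 to 9.05, 9.0 and 8.84 (-1.03 ± 0.09), and Rbpj, the nuclear effector of Notch, rose from 7.04 and 7.17 to 8.58, 8.51 and 8.80 (1.53 ± 0.13), 1.45 ± 0.12 above CD25+ cells.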
